A study of Mus musculus with 22 samples.

Results

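The 10 genes described here are the Ugt2 and Ugt3 members of the UDP-glycosyltransferase superfamily that were taken by symbol from the 53392 rows of a mouse liver count table. They comprise 8 Ugt2 genes (Ugt2a3, Ugt2b1, Ugt2b34, Ugt2b35, Ugt2b36, Ugt2b5, Ugt2b37 and Ugt2b38) and 2 Ugt3 genes (Ugt3a1 and Ugt3a2). All 10 were among the 15928 genes kept by the filter on low counts. Ugt2b38 was kept through its non-pregnant libraries: 0 of 5 germ-free pregnant and 3 of 6 germ-free non-pregnant libraries reached the cutoff of 0.464 CPM, as did 1 of 5 conventional pregnant and 5 of 6 conventional non-pregnant ones.

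UDP-glucuronosyltransferases sit in the membrane of the endoplasmic reticulum of hepatocytes and join glucuronic acid, taken from UDP-glucuronic acid, to steroids, bile acids, bilirubin and drugs. The conjugates are more soluble in water and leave the cell through export pumps into bile or blood. Ugt2 enzymes are best known for steroid hormones, bile acids and opioids, whereas Ugt3 enzymes, studied mainly in human, use other sugars such as N-acetylglucosamine, glucose or xylose. Gut bacteria carry beta-glucuronidases that release the parent compound again, and the levels of sex steroids, substrates of Ugt2 enzymes, are high in pregnancy.

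Liver RNA was sequenced from 22 female C57BL/6 mice, with 1 library per mouse. The groups were 5 conventional pregnant, 6 conventional non-pregnant, 5 germ-free pregnant and 6 germ-free non-pregnant mice, all fed the same autoclaved chow, and the labels name no further allele or treatment. Germ-free mice carry no microorganisms and conventional mice an ordinary microbiota. Pregnant mice were taken at gestation day 15. That day was assumed in germ-free mice, after matings of 72 h at 11 to 15 weeks of age, and counted from 1 overnight mating at 8 weeks of age in conventional mice. The labels give ages, without a unit, of 91 to 121 for germ-free and 70 to 77 for conventional mice, so age and microbiota status cannot be told apart. The series' title asks how the microbiome affects drug-processing genes of the liver during pregnancy.

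Libraries held 18064491 to 30036912 estimated counts, of which 5.90% to 32.0% came from mitochondrially encoded genes. Of 6 hepatocyte markers listed, 5 were matched and tested, and their summed level was at least 50286 CPM (counts scaled to the effective library size) in every library. Kidney markers, 5 in number, summed to at most 0.465 CPM in any library. The 5 intestinal epithelium markers, of which 2 were tested, summed to 30.5 to 113 CPM, with Alpi among them at 0 in all libraries. The library of conventional pregnant replicate 2 stood apart. Its level of Saa1, an acute phase protein gene, was 2049 CPM, against at most 62.2 CPM in the other 21 libraries, and its 5 Kupffer cell markers summed to 703 CPM, against at most 369 CPM in any non-pregnant or germ-free library. The median Kupffer cell sum of the conventional pregnant group, which includes it, was 315 CPM. For members whose level differed in replicate 2, changes in conventional pregnancy are given with and without that library.

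The 8 Ugt2 genes lie within 534 kb on chromosome 5 (86889767 to 87424203, GRCm38, GENCODE M21 models) and the Ugt3 pair within 94.1 kb on chromosome 15 (9276888 to 9370955). Ugt2b38 (ENSMUSG00000061906.5) is at 87409942 to 87424203, Ugt2b37 (ENSMUSG00000057425.3) at 87240493 to 87254804 and Ugt2b5 (ENSMUSG00000054630.7) at 87124960 to 87140318, all on the minus strand with 6 exons each. Ugt2b1 (ENSMUSG00000035836.2) is at 86916638 to 86926530 and Ugt2a3 (ENSMUSG00000035780.2) at 87324972 to 87337195, also on the minus strand. Ugt2b34 (ENSMUSG00000029260.15) is at 86889767 to 86906937 and Ugt2b36 (ENSMUSG00000070704.10) at 87065927 to 87092555, again on the minus strand, and Ugt2b35 (ENSMUSG00000035811.10) at 87000860 to 87013275 on the plus strand. Ugt3a1 (ENSMUSG00000072664.11) is at 9276888 to 9315032 and Ugt3a2 (ENSMUSG00000049152.11) at 9335550 to 9370955 of chromosome 15, both on the plus strand with 7 exons.

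Coding sequences separate the genes into sets of close copies. Ugt2b38 was 97.0% identical to Ugt2b5, with 47 of 1590 bases differing, and 94.1% identical to Ugt2b37, with 94 differing. Ugt3a1 and Ugt3a2 were 93.2% identical. All pairs within Ugt2b ranged from 71.0% to 97.0%, Ugt2a3 shared 65.7% to 68.4% with Ugt2b genes, and Ugt2 genes shared 51.7% to 53.3% with Ugt3 genes.

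Such copies matter for a count table because reads that match several transcripts are divided between them by estimation. In the GENCODE M21 transcripts, 47.1% of the 31-base words of Ugt2b38 occurred in no other gene, and 44.1% occurred in Ugt2b5. The gene-specific share was 43.6% for Ugt2b5, 65.6% for Ugt2b37, 78.1% for Ugt3a1 and 79.7% for Ugt3a2, and 86.5% to 99.2% for the other 5 genes. Levels of Ugt2b38, Ugt2b37 and Ugt2b5 are therefore uncertain individually.

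**Figure D1:**
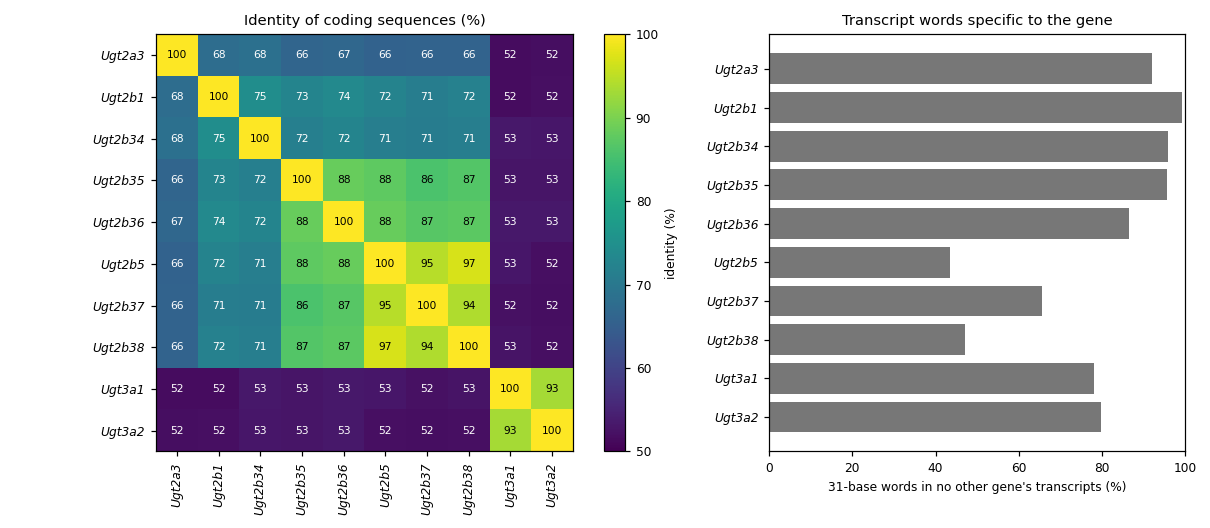
Left, identity of coding sequences in percent for each pair of the 10 genes. Right, percentage of each gene's 31-base transcript words that occur in no other gene's transcripts. Ugt2b5 (43.6%) and Ugt2b38 (47.1%) have the smallest gene-specific shares.

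The stretch of exon 6 below, coding bases 1452 to 1511, is shown because it holds some of the letters by which a read can be placed in Ugt2b38. It was the 60-base coding window with the most such positions, and others lie elsewhere in the gene. The 7 capitals mark positions at which Ugt2b38 differs from both Ugt2b37 and Ugt2b5, written 5′ to 3′ on the coding strand of GRCm38 (chr5:87410290-87410349 in Ugt2b38, chr5:87240842-87240901 in Ugt2b37 and chr5:87125295-87125354 in Ugt2b5).
Ugt2b38: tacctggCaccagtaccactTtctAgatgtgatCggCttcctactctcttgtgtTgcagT
Ugt2b37: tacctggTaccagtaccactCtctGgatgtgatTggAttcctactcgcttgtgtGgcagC
Ugt2b5: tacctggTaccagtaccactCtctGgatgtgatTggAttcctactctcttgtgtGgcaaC

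Promoters of this set resemble each other too, and are shown because the 3 genes with near-identical coding sequence differ widely in level. RefSeq promoter windows (GRCm38.p6) were found for 9 of the 10 genes. HNF1 factors are hepatocyte regulators with a known place in Ugt promoters, and their consensus of 13 letters, a palindrome around 1 free base, was searched on both strands in the 250 bases before the start. A match with at most 3 mismatches stood in 9 of these 9 windows, against 7.58% of 32851 promoters. The motif was chosen with these sequences in view, and the windows of the Ugt2 genes come from 1 cluster of related copies. The 2 shares are therefore not a test of enrichment. Ugt3a1 had 1 mismatch and Ugt2a3 had 2, a level reached by 1.24% of promoters, and the other 7 genes had 3. Below, capitals mark that match in the last 120 bases before the RefSeq start. Ugt2b38, Ugt2b37 and Ugt2b5 had the same 13 letters, which lay 64, 78 and 61 bases before the RefSeq start. Ugt2b36 differed from these 3 genes within the match. The GENCODE starts of Ugt2b37 and Ugt2b5 differ from the RefSeq ones, so these distances depend on the start used.
Ugt2b38 (chr5:87424204-87424323, - strand): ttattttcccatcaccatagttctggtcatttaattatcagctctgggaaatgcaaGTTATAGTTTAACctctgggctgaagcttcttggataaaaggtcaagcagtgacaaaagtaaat
Ugt2b37 (chr5:87254789-87254908, - strand): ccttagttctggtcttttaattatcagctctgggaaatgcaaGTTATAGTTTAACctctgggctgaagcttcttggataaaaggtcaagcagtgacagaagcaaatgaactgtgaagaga
Ugt2b5 (chr5:87140341-87140460, - strand): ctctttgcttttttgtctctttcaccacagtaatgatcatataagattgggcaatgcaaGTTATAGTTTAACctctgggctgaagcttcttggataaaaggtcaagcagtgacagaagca
Ugt2b36 (chr5:87092556-87092675, - strand): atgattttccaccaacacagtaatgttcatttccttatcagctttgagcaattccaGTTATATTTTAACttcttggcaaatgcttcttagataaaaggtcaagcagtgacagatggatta

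Levels per length spanned more than 3 orders of magnitude. Ugt2b5 averaged 332 ± 66.6 CPM per kb of exon over the 22 libraries and Ugt2b36, which in mouse conjugates morphine, 254 ± 64.8 (SD). Per length of exon, the median share of the summed level was 34.4% for Ugt2b5 and 24.3% for Ugt2b36. A middle group followed with Ugt2a3 (91.9 ± 18.8 CPM per kb), Ugt3a2 (81.3 ± 20.5), Ugt2b34 (79.6 ± 15.8) and Ugt2b1 (71.3 ± 16.9). Below it stood Ugt2b35 (37.8 ± 13.8), Ugt3a1 (24.4 ± 6.92), Ugt2b37 (3.45 ± 2.50) and Ugt2b38 (0.229 ± 0.267).

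Some neighbours in that order were not separated. Ugt2a3 was above Ugt3a2 in 14 of 22 libraries and Ugt3a2 above Ugt2b34 in 13 of 22, whereas Ugt2b36 was above Ugt2a3 in 22 of 22. Ugt2b5 was above Ugt2b36 in 18 of 22. In germ-free pregnant mice the mean of Ugt2b36, 314 ± 65.0 CPM per kb, exceeded that of Ugt2b5, 291 ± 57.9 (SD, n = 5), a difference smaller than either SD. Per kb of coding sequence, Ugt2b5 averaged 387 CPM and Ugt2b36 328 CPM, followed by Ugt2b34 at 215 CPM and Ugt3a2 at 161 CPM. With the mean transcript length as divisor, Ugt2b36 stood first at 489 CPM per kb, Ugt3a2 stood at 125 and Ugt3a1 at 78.1.

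**Figure D2:**
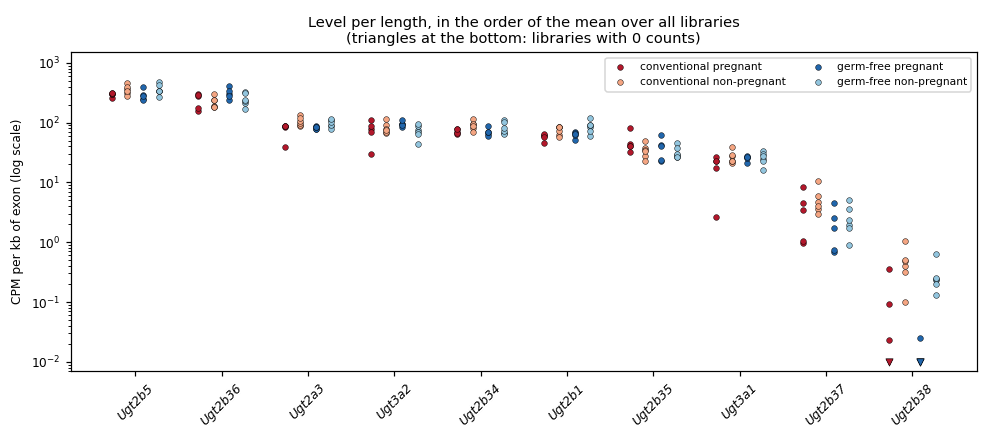
CPM per kb of exon (log scale) of the 10 genes in each of 22 libraries, in the order of the mean over all libraries, with the 4 groups by colour. Triangles at the bottom are libraries with 0 counts. Ugt2b5 (mean 332) and Ugt2b38 (mean 0.229) mark the ends of the range.

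Summed over the 10 genes, levels overlapped between the groups of each comparison. The sum was 2118 ± 250 CPM in conventional pregnant mice (SD, n = 5) and 2388 ± 355 CPM in conventional non-pregnant mice (SD, n = 6). In germ-free mice it was 2321 ± 354 CPM in pregnant and 2385 ± 475 CPM in non-pregnant animals (SD, n = 5 and 6). As these are bulk samples, fewer cells of a type and less RNA per cell cannot be told apart.

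Ugt2b38 was the single gene of the 10 that passed the test in a comparison of the study's design, and it was lower in pregnancy. The filter on low counts had kept it through its non-pregnant libraries, where its level was higher. For Ugt2b38, the call and the lack of overlap below are therefore not free of that selection. In germ-free mice, its 5 pregnant libraries held 0, 0, 0, 0 and 0.0479 CPM (replicates 1 to 5), and its 6 non-pregnant libraries held 0.445, 0.465, 1.19, 0.474, 0.244 and 0.373 CPM (replicates 1 to 6). Every pregnant library lay below every non-pregnant one. Ugt2b38 was the 1 member of 10 whose groups did not overlap in germ-free mice, where 8.47% of all tested genes had groups that did not overlap. In counts, this was 1 over 5 pregnant libraries against 73 over 6 non-pregnant ones, a rate ratio of 0.0195 with a 95% exact interval of 0.000486 to 0.112 that covers counting error only.

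The fitted log2 change of Ugt2b38 in germ-free pregnancy was -5.07 ± 1.1 (edgeR adjusted p = 0.00334), a size that depends on the prior count since 4 of 5 pregnant libraries were at 0. It was the 1 member called of 10, where 10.8% of all tested genes were called in either direction and 3.6% were called lower. The call held when any 1 of the 11 germ-free libraries was left out, with a highest adjusted p of 0.0135. With only the germ-free groups fitted, or under a stricter filter (1 CPM in 11 libraries), Ugt2b38 was removed by the filter and had no test.

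In conventional mice the levels of Ugt2b38 overlapped. The 5 pregnant libraries held 0.663, 0.0438, 0, 0.174 and 0 CPM, and the 6 non-pregnant libraries 0.756, 0.916, 0.606, 0.190, 0.946 and 2.02 CPM. Pregnant replicate 1, with 16 of the group's 22 counts, lay within the non-pregnant range, and the other 4 pregnant libraries lay below it. The log2 change was -2.27 ± 0.74 (adjusted p = 0.0561) and missed the threshold. It passed without conventional pregnant replicate 1 (log2 change -3.74, adjusted p = 0.00327), without conventional non-pregnant replicate 4 (adjusted p = 0.0447) and with DESeq2 (adjusted p = 0.0226), and without conventional pregnant replicate 2 its adjusted p was 0.136.

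Ugt2b38 was also set against its near-identical copy within each library. Its count as a percentage of that of Ugt2b5 had a median of 0 in germ-free pregnant and 0.0594 in germ-free non-pregnant mice. The median was 0.00813 in conventional pregnant and 0.130 in conventional non-pregnant mice. The highest percentage in any library was 0.323, and the part played by the division of shared reads was not tested.

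Cell type markers, of which some moved with pregnancy, stand beside this result. The 5 erythroid markers summed to 529 to 1050 CPM in germ-free pregnant and 76.7 to 473 CPM in germ-free non-pregnant livers, and all 5 rose. The summed hepatocyte markers were 123029 to 187697 CPM in germ-free pregnant and 50286 to 85974 CPM in germ-free non-pregnant livers, with 3 of 5 higher and 1 lower. Exocrine pancreas markers summed to 0.383 to 18.2 CPM in germ-free pregnant and 0 to 0.107 CPM in germ-free non-pregnant livers, with none of the 5 tested. The medians of that sum were 1.21 and 0.0383 CPM. The 5 cholangiocyte markers summed to 6.35 to 100 CPM in germ-free pregnant and 8.10 to 15.6 CPM in germ-free non-pregnant livers, with 1 of 4 tested higher. Their median sum was 8.13 CPM in the pregnant and 9.29 CPM in the non-pregnant group. Endothelial markers summed to 91.8 to 142 and 95.4 to 137 CPM in the same groups, with 1 of 5 higher, and stellate markers to 108 to 170 and 122 to 236 CPM, with 1 of 5 lower. Their part in the level of Ugt2b38 was not tested.

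The tested genes outside the 10 whose profile over the 22 libraries was most like that of Ugt2b38, by root mean square difference of centred log2 CPM, were Abcc3, Ces4a and Ddah1. The difference was 0.67 for Abcc3, which encodes an export pump for glucuronides, 0.72 for the carboxylesterase gene Ces4a and 0.76 for Ddah1, against an SD of 1.5 for Ugt2b38 itself. Ces4a too was near 0, with means of 0.0499 CPM in germ-free pregnant and 0.184 CPM in conventional pregnant mice. At such levels the log2 values of Ugt2b38 and Ces4a depend on the prior count, so the likeness shows little beyond a shared fall in pregnancy.

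Ugt2b1, whose rat counterpart conjugates testosterone and bisphenol A, was lower in pregnancy in both settings without passing either test alone. In germ-free mice the 5 pregnant libraries held 182, 129, 170, 160 and 164 CPM, and the 6 non-pregnant ones 156 to 309 CPM with a median of 226. In conventional mice the 5 pregnant libraries held 151, 117, 160, 167 and 147 CPM, and the 6 non-pregnant ones 145 to 221 CPM with a median of 201. The groups overlapped in both settings. The log2 change was -0.47 ± 0.16 in germ-free mice (adjusted p = 0.0575) and -0.36 ± 0.16 in conventional mice (adjusted p = 0.168). Without conventional pregnant replicate 2 the conventional change was -0.29 ± 0.16. In germ-free mice it passed with DESeq2 (adjusted p = 0.0181), on library totals without TMM (0.0051), without mitochondrially encoded genes (0.0443) and under a stricter filter (0.0358). It also passed without germ-free non-pregnant replicate 2 (adjusted p = 0.0195) or germ-free pregnant replicate 1 (0.0496).

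Ugt2a3, whose human counterpart conjugates bile acids, was the 1 member of 10 whose groups did not overlap in conventional mice, where 4.96% of all tested genes had groups that did not overlap. The 5 pregnant libraries held 180, 82.1, 183, 184 and 184 CPM, and the 6 non-pregnant libraries 186 to 286 CPM with a median of 218. Each pregnant library lay below each non-pregnant one, 4 of them just below. The log2 change was -0.47 ± 0.17 (adjusted p = 0.0921) and, without conventional pregnant replicate 2, -0.31 ± 0.13 (adjusted p = 0.213). It passed with DESeq2 (adjusted p = 0.0343) and on library totals without TMM (0.0447). In germ-free mice, where the 5 pregnant libraries held 165, 166, 189, 182 and 180 CPM and the 6 non-pregnant ones 164 to 241 CPM with a median of 203, the groups overlapped and the change was -0.22 ± 0.17 (adjusted p = 0.484).

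**Figure D3:**
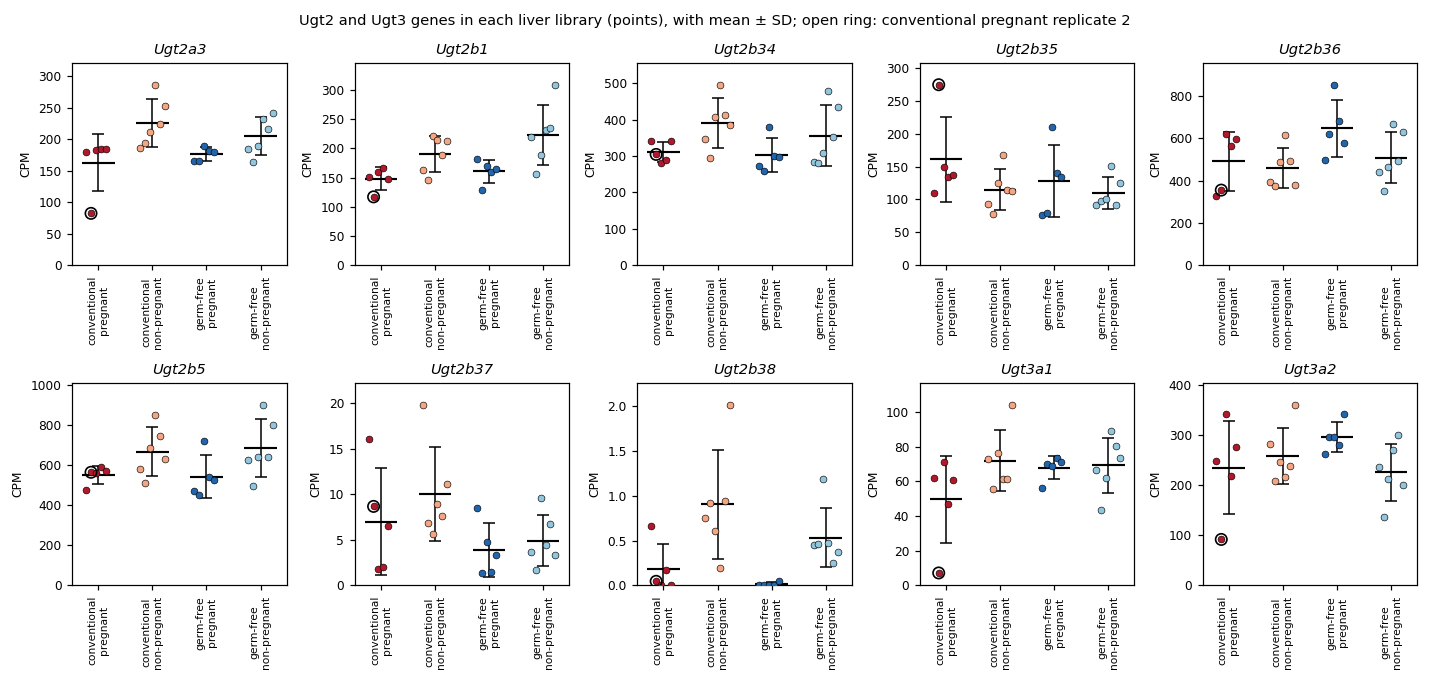
CPM of each gene (linear axes from 0) in every library of the 4 groups, with the group mean and SD as bars. Open rings mark conventional pregnant replicate 2. Ugt2b38 is near 0 in all 5 germ-free pregnant libraries, and the ringed library is lowest for Ugt3a1 at 7.09 CPM.

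Over the 10 genes, 0 were called with pregnancy in conventional mice, where 9.02% of tested genes were called. There 3 members had an unadjusted p under 0.05 (Ugt2a3, Ugt2b1 and Ugt2b38), as did 3502 of the 15928 tested genes. DESeq2 called 2 members, Ugt2a3 and Ugt2b38, and over all tested genes 993 higher and 893 lower. The median log2 change was -0.35 over the 10 genes and 0.04 over all tested genes in conventional mice. In germ-free mice it was -0.23 over the 10 genes and -0.02 over all tested genes.

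The most abundant pair differed in sign. Ugt2b5 had a log2 change of -0.34 ± 0.17 in germ-free (95% interval -0.68 to 0.0058) and -0.27 ± 0.17 in conventional pregnancy (-0.62 to 0.069). Ugt2b36 had 0.35 ± 0.20 (-0.074 to 0.77) and 0.10 ± 0.20 (-0.32 to 0.53) in the same comparisons. None of the 4 values passed the test, and each interval includes 0. Without conventional pregnant replicate 2 the conventional value of Ugt2b36 was 0.20 ± 0.21.

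For the remaining Ugt2 genes no pregnancy comparison passed the test either. Ugt2b34 had log2 changes of -0.24 ± 0.16 in germ-free and -0.33 ± 0.16 in conventional pregnancy, and Ugt2b35 had 0.23 ± 0.26 and 0.49 ± 0.26. Without conventional pregnant replicate 2, where Ugt2b35 was highest, its conventional value was 0.21 ± 0.24 (adjusted p = 0.748). Ugt2b37, a close copy of Ugt2b38, had -0.36 ± 0.54 and -0.51 ± 0.53. Its 95% intervals, -1.48 to 0.77 and -1.60 to 0.58, were wide: levels within a group ran from 1.31 to 8.50 CPM in germ-free pregnant, 1.72 to 9.57 CPM in germ-free non-pregnant, 1.83 to 16.0 CPM in conventional pregnant and 5.65 to 19.8 CPM in conventional non-pregnant mice.

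In the Ugt3 pair, 1 library stood far from the others. Ugt3a1, whose human counterpart uses UDP-N-acetylglucosamine, held 61.8, 7.09, 71.0, 47.0 and 60.7 CPM in the 5 conventional pregnant libraries and 55.6 to 104 CPM, median 67.1, in the non-pregnant ones. Ugt3a2, whose human counterpart uses UDP-glucose and UDP-xylose, held 247, 91.4, 342, 218 and 275 CPM against 207 to 360 CPM with a median of 242. In both genes replicate 2 was far below all other libraries, and the remaining 4 overlapped with the non-pregnant range. The log2 change of Ugt3a1 was -0.54 ± 0.33 with that library and -0.26 ± 0.18 without it. That of Ugt3a2 was -0.14 ± 0.24 with it and 0.07 ± 0.19 without it, and none of these values passed the test.

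In germ-free pregnancy, Ugt3a1 had a log2 change of -0.03 ± 0.32 (95% interval -0.70 to 0.64) and Ugt3a2 one of 0.39 ± 0.24 (-0.098 to 0.88).

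**Figure D4:**
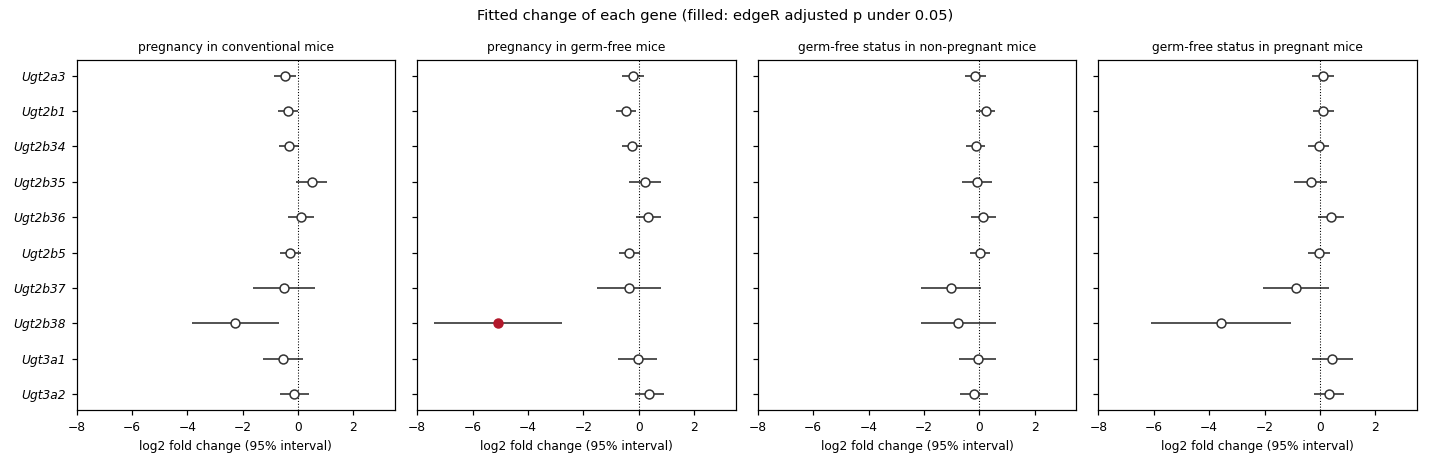
Log2 fold change (horizontal axis) with its 95% interval for each of the 10 genes in 4 comparisons. Left panels are pregnant against non-pregnant and right panels germ-free against conventional mice. The single filled point, at -5.07, is Ugt2b38 in germ-free pregnancy, with an edgeR adjusted p of 0.00334.

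Conventional pregnant replicate 2 moved members in different directions. Its level was 11.8% of the mean of the other 4 pregnant libraries for Ugt3a1, 33.8% for Ugt3a2, 44.9% for Ugt2a3, 67.5% for Ugt2b36 and 74.9% for Ugt2b1. For Ugt2b36, replicate 1 of the same group was lower still, at 326 CPM against 355 CPM in replicate 2. The level in replicate 2 was 207% of that mean for Ugt2b35, 132% for Ugt2b37, 103% for Ugt2b5 and 97.3% for Ugt2b34. For Ugt2b38, which was near 0 counts, it was 20.9%. Besides Saa1, its neutrophil markers summed to 23 CPM, against at most 3.43 CPM in non-pregnant or germ-free libraries and a median of 1.22 CPM in its own group. Its share of mitochondrially encoded counts was the lowest, 5.90%. The part of these features in the levels of the members was not tested.

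**Figure D5:**
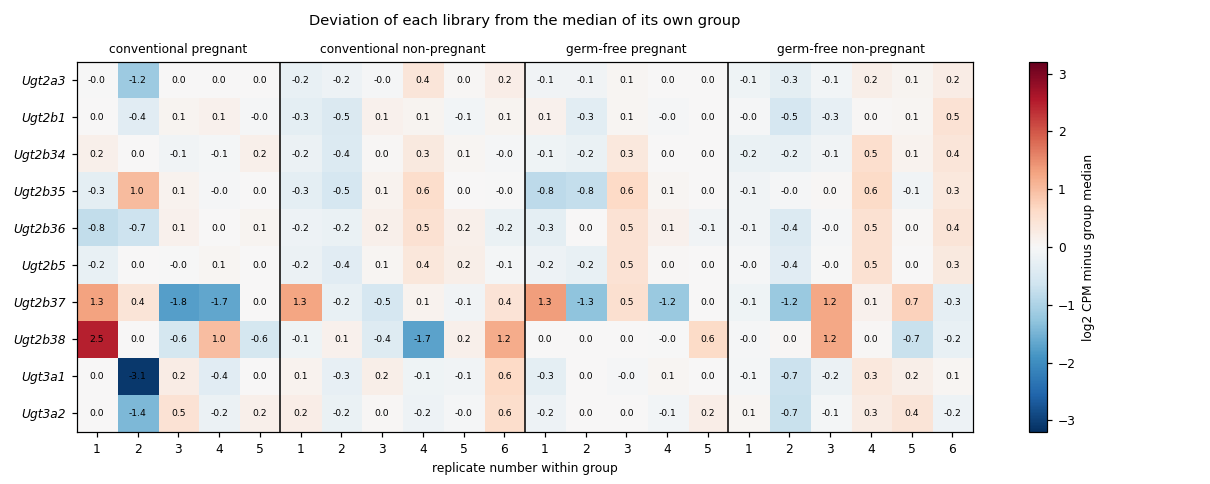
Log2 CPM (prior count 2) of each library minus the median of its own group, for the 10 genes (down) and 22 libraries (across, by group). Conventional pregnant replicate 2 is low for Ugt3a1, Ugt3a2 and Ugt2a3 and high for Ugt2b35, while Ugt2b5 and Ugt2b34 are near their group's median.

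None of the 10 genes passed the test for germ-free status. In non-pregnant mice 0 members were called (0 at an unadjusted p under 0.05, 0 with DESeq2), where 0.157% of tested genes were called. In pregnant mice 0 were called (1 at an unadjusted p under 0.05, 0 with DESeq2), where 0.132% were called. Over all tested genes, 1672 had an unadjusted p under 0.05 in pregnant mice. The median log2 change of germ-free over conventional mice was -0.10 over the 10 genes and -0.01 over all genes in non-pregnant mice, and 0.04 against -0.03 in pregnant mice.

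Intervals show what size these comparisons leave possible. For Ugt2b5 the 95% interval of the germ-free change was -0.29 to 0.36 in non-pregnant and -0.38 to 0.33 in pregnant mice. For Ugt2b36 it was -0.25 to 0.55 and -0.048 to 0.84. The widest were those of Ugt2b38, -2.08 to 0.55 in non-pregnant and -6.07 to -1.07 in pregnant mice. In pregnant mice Ugt2b38 was the member with an unadjusted p under 0.05 (log2 change -3.57 ± 1.21, adjusted p = 0.307), from 1 count in germ-free and 22 counts in conventional pregnant mice. Without conventional pregnant replicate 1, which held 16 of those 22, the change was -2.09 ± 1.18 (adjusted p = 0.595). Ugt2b37 had -0.87 ± 0.56 in pregnant and -1.02 ± 0.51 in non-pregnant mice. Conventional pregnant replicate 2 bore on this comparison too: in pregnant mice the change of Ugt2b35 was -0.33 with that library and -0.06 without it, and that of Ugt3a1 was 0.45 with it and 0.17 without it.

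An interaction term tested whether pregnancy moved a gene by different amounts in germ-free and in conventional livers. It called 0 of the 10 genes (0 at an unadjusted p under 0.05, 0 with DESeq2), where 0% of all tested genes were called. Over all genes, 903 had an unadjusted p under 0.05 and DESeq2 called 7. For Ugt2b38 the difference was -2.81 ± 1.37 on the log2 scale (adjusted p = 0.863), and -1.33 ± 1.18 without conventional pregnant replicate 1, so that its call in germ-free mice and its miss in conventional mice are not shown to differ.

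Because the 2 pregnancy comparisons share no library, their mean was also tested over all 22 libraries, a test chosen after the single comparisons had been seen. It called 3 of the 10 genes, all lower, where 20.2% of tested genes were called and 8.39% were called lower. Ugt2b38 fell by 3.67 ± 0.67 on the log2 scale (adjusted p = 0.000288), Ugt2b1 fell by 0.42 ± 0.11 (adjusted p = 0.00926) and Ugt2a3 fell by 0.34 ± 0.12 (adjusted p = 0.0488). The filter kept Ugt2b38 through its non-pregnant libraries. Its pregnant groups held 1 and 22 counts, so the size of its fall depends on the prior count. The call of Ugt2b1 held in all 28 alternatives run for it, with adjusted p from 0.000714 to 0.0221. That of Ugt2a3 was lost in 15 of 22 fits that left out 1 library. The median was -0.30 over the 10 genes and 0.01 over all genes. The corresponding mean of the germ-free comparisons called 0 members (2 at an unadjusted p under 0.05, 0 with DESeq2), where 0.753% of genes were called. Over all tested genes, 1710 had an unadjusted p under 0.05 in that test.

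Genes around the pathway were read from lists drawn up by function, with earlier results of these data known, and their calls stand beside 10.8% of all tested genes called in germ-free and 9.02% in conventional pregnancy. In the supply and use of UDP-glucuronic acid, 5 of 12 genes rose and 1 fell in germ-free pregnancy, and 2 rose and 1 fell in conventional pregnancy. The median log2 change of the list was 0.16 in germ-free and 0.08 in conventional mice, where that of all tested genes was -0.02 and 0.04. Ugp2, which makes UDP-glucose, the precursor of UDP-glucuronic acid, averaged 194 ± 15.1 CPM in germ-free pregnant and 334 ± 59.9 CPM in germ-free non-pregnant mice (SD), and fell by 0.78 ± 0.14 there and by 0.63 ± 0.14 in conventional pregnancy. Gusb, the lysosomal beta-glucuronidase that splits glucuronides, rose by 1.34 ± 0.15 in germ-free and 1.23 ± 0.15 in conventional pregnancy. Slc35b1, a nucleotide carrier of the endoplasmic reticulum, rose by 1.42 ± 0.20 and 0.90 ± 0.20.

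For UDP-N-acetylglucosamine supply, 1 of 6 genes rose in germ-free and 2 rose in conventional pregnancy, with 0 lower in both and medians of 0.12 and 0.16. Gfpt1, the first enzyme of the hexosamine pathway, rose by 0.58 ± 0.15 and 0.55 ± 0.15, and Pgm3 rose by 0.89 ± 0.22 in conventional mice.

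Of 12 other UDP-glycosyltransferase genes, 10 were tested. In germ-free pregnancy 3 rose and 1 fell, and in conventional pregnancy 1 rose and 1 fell, with medians of 0.34 and -0.22. Ugt1a6b, of the phenol-conjugating Ugt1a6 type, averaged 18.1 ± 2.97 CPM in germ-free pregnant and 66.9 ± 9.24 CPM in germ-free non-pregnant mice, a log2 change of -1.88 ± 0.19, with -1.74 ± 0.19 in conventional pregnancy. Ugt1a5 rose by 1.74 ± 0.41 and 1.43 ± 0.41, and Ugt1a10 rose by 3.40 ± 0.72 in germ-free mice. Ugt1a genes share their last exons, so the division of counts among them is uncertain.

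Glucuronide transporters were lower where they moved: 3 of 8 fell and 0 rose in each setting, with medians over the list of -0.16 in germ-free and -0.06 in conventional mice. Abcc3 averaged 34.6 ± 14.8 CPM in germ-free pregnant and 208 ± 36.6 CPM in germ-free non-pregnant mice, a log2 change of -2.59 ± 0.43, with -1.75 ± 0.41 in conventional pregnancy. Slco1a4, an uptake carrier for organic anions, fell by 1.68 ± 0.34 and 1.72 ± 0.34.

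Among 13 regulators known for Ugt genes, 1 fell and 0 rose in germ-free pregnancy, and 1 fell and 1 rose in conventional pregnancy, with medians of 0.11 and -0.05. Foxa1, a hepatocyte transcription factor, fell by 1.00 ± 0.19 and 1.08 ± 0.19, and Nfe2l2, which encodes the oxidative stress factor Nrf2, rose by 0.62 ± 0.14 in conventional mice. The test of the averaged pregnancy change, chosen after seeing the data, called 3 higher and 3 lower, where 20.2% of all tested genes were called. The regulators called included Nr1i3, the xenobiotic sensor CAR (-1.02 ± 0.28, adjusted p = 0.0102), and Hnf4a (0.42 ± 0.14, adjusted p = 0.0316). Germ-free status called 1 gene of these 5 lists in pregnant mice, Ugt1a9 (log2 change 1.09 ± 0.22, adjusted p = 0.0411), where 0.132% of all tested genes were called. In non-pregnant mice it called 0 genes of the lists, where 0.157% were called. The averaged germ-free change called 2 genes of the lists, Ugp2 (0.53 ± 0.10, adjusted p = 0.00915) and Ugt1a9 (0.64 ± 0.15, adjusted p = 0.0335), where 0.753% were called.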

How the data were processed

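Per the labels' protocols, total RNA from frozen liver went into NEBNext Ultra libraries. The authors deposited unscaled estimated counts, 1 value per gene and library. Salmon 0.11.3, edgeR 3.24.3 and build GRCm38.p6 are named in the submitters' processing notes, and the annotation release is not given in the sources used here. Identifiers were matched to GENCODE M21 symbols (99.9% with or without their version).

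Estimated counts were rounded (summed change 0.00829% of counts). Genes were filtered with the default of edgeR 4.0.16 (minimum count 10, minimum total 15), scaled by TMM and fitted in R 4.3.3 in 1 quasi-likelihood model with a term per group over 22 libraries. Benjamini-Hochberg adjustment ran over all 15928 genes tested, and genes were called at an adjusted p under 0.05. Unless DESeq2 1.42.0 is named, each adjusted p and each call is from edgeR. Standard errors were derived from the F statistic. Log2 fold changes are pregnant over non-pregnant or germ-free over conventional. CPM uses the effective library size.

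On simulated counts for 15573 genes of germ-free pregnancy, edgeR recovered 80% of genes changed by 1 on the log2 scale and 94% of those changed by 2, with 10 false calls. DESeq2 recovered 86% and 94%, with 31 false calls. The changed genes were drawn from genes with a mean level far above that of Ugt2b38 (0.434 CPM). These rates therefore do not cover Ugt2b38. Nor do they cover changes smaller than 1 on the log2 scale, such as those fitted for the other members in pregnancy. Coding identity and motifs were computed with Biopython 1.88. The labels do not pair the samples by replicate number. No 2 libraries of a group were repeats: the lowest mean chi-square per gene over 50 pairs was 33.9. Alternatives were DESeq2, other scalings and filters, the 2 groups alone, a replicate block and leaving out each library.

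The members and gene lists were chosen with earlier results of these data known. All 10 members are named, with the 3 genes most like a called member and, from each context list, up to 2 called genes per direction and comparison.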

Additional observations from a re-analysis of the deposited data

Results flagged for a closer look

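Of 40 sets of values (10 genes in 4 groups), 7 held a library whose gap to its nearest neighbour was wide for the range of its group by Dixon's 95% criterion. Chance meets it in about 1 of 20 sets of independent, normally distributed values. The sets here share libraries and those of Ugt2b38 lie near 0 counts, so the number flagged cannot be weighed against that rate. Of these 7, 2 were in conventional pregnant replicate 2: 82.1 CPM for Ugt2a3, nearest other 180, and 275 CPM for Ugt2b35, nearest other 150. Ugt2b5 was low at 474 CPM in conventional pregnant replicate 1, with the nearest other at 557. The same library was high for Ugt2b38 at 0.663 CPM, with the nearest other at 0.174. Ugt2b38 was also high in germ-free non-pregnant replicate 3 at 1.19 CPM and in germ-free pregnant replicate 5 at 0.0479 CPM, which is 1 count beside 4 libraries at 0. Ugt3a1 was low at 56.3 CPM in germ-free pregnant replicate 1, with the nearest other at 68.7.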

How the results depend on the processing

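Depth limits Ugt2b38, whose pregnant groups held 1 and 22 counts, and shared sequence limits Ugt2b5, Ugt2b37 and Ugt2b38. The count of members called with pregnancy depended on the tool and the scaling; beyond what is said here, the cause was not tested. In conventional mice it was 2 with DESeq2, 1 on library totals without TMM and 0 to 1 when 1 of the 11 libraries compared was left out, against 0. In germ-free mice it was 2 with DESeq2 and without mitochondrially encoded genes, 5 without TMM (Ugt2b38, Ugt2b1, Ugt2a3, Ugt2b34 and Ugt2b5), 1 to 2 when 1 of the 11 libraries compared was left out and 0 with the 2 groups alone, where the filter removed Ugt2b38, against 1. For the averaged change it was 5 with DESeq2 and without TMM and 2 to 5 when 1 of 22 libraries was left out, against 3. Over all tested genes DESeq2 called 993 higher and 893 lower in conventional pregnancy and 1254 and 875 in germ-free pregnancy. For the averaged change it called 1892 higher and 1698 lower. Germ-free status and the interaction called 0 members in every alternative. Ugt2b38 had no value under the stricter filter, and the interaction and the averaged changes were not run on 2 groups.

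Without TMM the median of all genes shifted by -0.31 in germ-free pregnancy, -0.25 for germ-free status in pregnant mice, -0.27 for the interaction and by -0.17 and -0.12 for the averaged pregnancy and germ-free changes. The split of calls became 470 higher and 2126 lower in germ-free pregnancy, against 1139 and 574, and 551 and 544 in conventional pregnancy, against 875 and 561. For the averaged pregnancy change it was 900 and 2513, against 1883 and 1337. Signs that turned without TMM, none past the threshold, were Ugt2b35 in germ-free pregnancy (-0.034), Ugt2a3 (-0.092) and Ugt2b1 (-0.11) for germ-free status in pregnant mice, Ugt2b34 (-0.17) and Ugt2b37 (-0.29) in the interaction, Ugt3a2 (-0.092) in the averaged pregnancy change, and Ugt2b5 (-0.11) and Ugt3a2 (-0.013) in the averaged germ-free change.

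Correlations of same-numbered deviations between groups ran from -0.26 to 0.31. Between germ-free pregnant and germ-free non-pregnant mice the 5 values ran from 0.0044 to 0.15, with 3 over 0.1. Libraries with different numbers were not compared in this way, so these values cannot decide whether the numbers pair the samples. With a replicate block, the calls were 0 in conventional pregnancy, 1 in germ-free pregnancy and 2 for the averaged change, Ugt2a3 being lost (adjusted p = 0.0585). Under the block Ugt3a1 in germ-free pregnancy became 0.097, and in the averaged germ-free change Ugt2a3 became 0.0060 and Ugt2b5 became -0.0043.

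Leaving out 1 library turned the sign of further values, none past the threshold. The ranges were -0.31 to 0.068 for Ugt3a2 in conventional pregnancy, and -0.027 to 0.37 for Ugt2b35 and -0.13 to 0.058 for Ugt3a1 in germ-free pregnancy. For germ-free status in non-pregnant mice they were -0.059 to 0.12 (Ugt2b5), -0.19 to 0.064 (Ugt2b35) and -0.14 to 0.080 (Ugt3a1), and in pregnant mice -0.052 to 0.17 (Ugt2a3), -0.14 to 0.0054 (Ugt2b34) and -0.15 to 0.033 (Ugt2b5). In the interaction they were -0.19 to 0.0069 (Ugt2b1), -0.0064 to 0.19 (Ugt2b34), -0.51 to 0.019 (Ugt2b35), -0.19 to 0.031 (Ugt2b5) and -0.35 to 0.72 (Ugt2b37). In the averaged germ-free change they were -0.097 to 0.027 (Ugt2a3), -0.059 to 0.045 (Ugt2b5) and -0.035 to 0.15 (Ugt3a2).

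Over all genes, germ-free status called 117 genes in non-pregnant mice with DESeq2, against 25, and in pregnant mice 108 with DESeq2, 35 without a filter and 5 with the 2 groups alone, against 21. The interaction called 7 with DESeq2, 2 with no or a stricter filter and 1 with a replicate block, against 0. The averaged germ-free change called 303 with DESeq2, against 120, germ-free pregnancy 2596 without TMM, against 1713, and conventional pregnancy 890 with the 2 groups alone, against 1436.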

Other observations

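Within each group, the level of Ugt2b37 was highest in a mouse with the lowest age label, a pattern noticed after the values had been seen. In germ-free pregnant mice it was 8.50 CPM at label 91 and 1.31 to 4.74 CPM at labels 105 to 121, and in germ-free non-pregnant mice 9.57 CPM at label 92 and 1.72 to 6.75 CPM at labels 100 to 105. In conventional pregnant mice it was 16.0 and 8.67 CPM at label 70 and 1.83 to 6.48 CPM at label 77. In conventional non-pregnant mice it was 19.8 and 11.2 CPM at label 70 and 5.65 to 8.89 CPM at label 77. A fit with the label as a further term gave -1.06 ± 0.25 on the log2 scale per 10 label units (unadjusted p = 0.000313 from edgeR, a model across all genes), but adjusted over all genes p was 0.9999. That fit called 0 of 10 members and 0% of all tested genes. At an unadjusted p under 0.05 there were 3 members (Ugt2b36, Ugt2b37 and Ugt2b38) and 545 genes in all, and DESeq2 was not run for it.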
